A study of Mus musculus with 4 samples.

Results

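The genes described here encode the nuclear subunits of respiratory complexes II, III and IV and of the ATP synthase, called complex V. They were chosen by name. A gene was taken when a probe set with a single symbol in the annotation of the array had a symbol that was Sdha, Sdhb, Sdhc, Sdhd or Cyc1 or that began with Uqcr, Cox4 to Cox8 or Atp5. This gave 47 of the 18193 genes on the array, 4 in complex II, 9 in complex III, 17 in complex IV and 17 in complex V, on 92 probe sets. Each gene is represented by its probe set with the highest mean log2 value over all 4 arrays, a choice that uses the level and not the difference between fractions.

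The inner mitochondrial membrane carries the respiratory chain. Complex II oxidises succinate and feeds electrons to ubiquinone, complex III passes them on to cytochrome c, and complex IV transfers them to oxygen. Complexes III and IV pump protons while they do so, and complex V uses the returning protons to make ATP. All subunits of complex II and most subunits of the others are encoded in the nucleus, translated on cytosolic ribosomes and imported, whereas the catalytic core of complex IV, cytochrome b and a pair of complex V subunits are encoded in mitochondrial DNA. Midbrain dopamine neurons are known for continuous pacemaking and very large axons, and inhibitors of the respiratory chain are used to model the loss of these cells in Parkinson disease.

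All 4 arrays came from the midbrain of adult mice of both sexes, 6 to 12 weeks old, of the Slc6a3 JD1640 TRAP line. Each array was hybridised with RNA from a pool of 5 mice. In these mice a bacterial artificial chromosome places an EGFP/RPL10A fusion at the translation start of Slc6a3, the dopamine transporter gene, so that ribosomes are tagged in the cells in which the transgene is active. The line is 1 integrant of the transgene, started on FVB and bred to C57BL6/j, and the input arrays come from mice with the same transgene. TRAP, the affinity purification of the tagged ribosomes with their bound mRNA, gave 2 arrays (replicates 2 and 4), and whole midbrain RNA collected in parallel, called input here and unbound in the sample labels, gave 2 arrays (replicates 1 and 2).

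Levels are given in arbitrary expression units, which are the deposited log2 values returned to the linear scale. A gene was called above background when both arrays of at least 1 fraction reached 50 units. Differences were tested with limma over all 45037 probe sets that are not Affymetrix controls, and a gene above background with a Benjamini-Hochberg adjusted p under 0.05 was called higher or lower in TRAP. Across the 4 arrays, 35.2% to 35.8% of probe sets reached 50 units, and the median probe set lay at 7.13 and 7.28 units in TRAP and at 10.1 and 10.2 units in input. All 10 dopamine neuron markers examined were called higher in TRAP, with a median log2 difference of 4.45, or 3.58 with Pitx3 and En1, which were below background in input, at their bounds. The summed level of the same markers was 164268 and 204711 units in TRAP and 20755 and 16117 units in input. Most astrocyte and all oligodendrocyte markers above background reached that level in both fractions. The 7 oligodendrocyte markers above background summed to 70627 units on TRAP replicate 2, 32742 on TRAP replicate 4 and 77276 and 89179 in input, with a median log2 difference of -1.12. All 8 astrocyte markers were above background in input, of which 6 also were in TRAP, summing to 11626 and 7559 units in TRAP and 26543 and 34272 in input, with a median of -2.01 (-1.69 with Sox9, below background in TRAP, at its bound). Of 8 pan-neuronal markers, all above background, 0 were called, 5 had TRAP higher and the median was 0.74, with sums of 77589 and 85785 units in TRAP and 64977 and 53028 in input. The part of these markers in the differences described next was not tested.

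Among the subunit genes above background, 20 were called higher in TRAP than in input, 20 were not called and 0 were called lower. Of the 47 genes, 40 were above background, and all 40 reached that level in both fractions. Both TRAP arrays lay above both input arrays for 38 of the 40 (95%), compared with 52.3% of all 10014 genes above background. The exceptions were Sdha and Cox7a2l, whose fractions overlapped. By limma 20 of the 40 (50%) were called higher and 0 lower, compared with 18.7% of all genes above background called higher and 6.87% called lower. At an unadjusted limma p under 0.05, 33 of the 40 passed with TRAP above input (82.5%), compared with 27.8% of all genes above background. The median log2 difference was 0.97 over the 40 genes and 0.44 over all genes above background. Among genes with a mean of 2000 units or more, 17 of 31 subunit genes (54.8%) were called higher, beside 19.8% of all such genes.

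**Figure D1:**
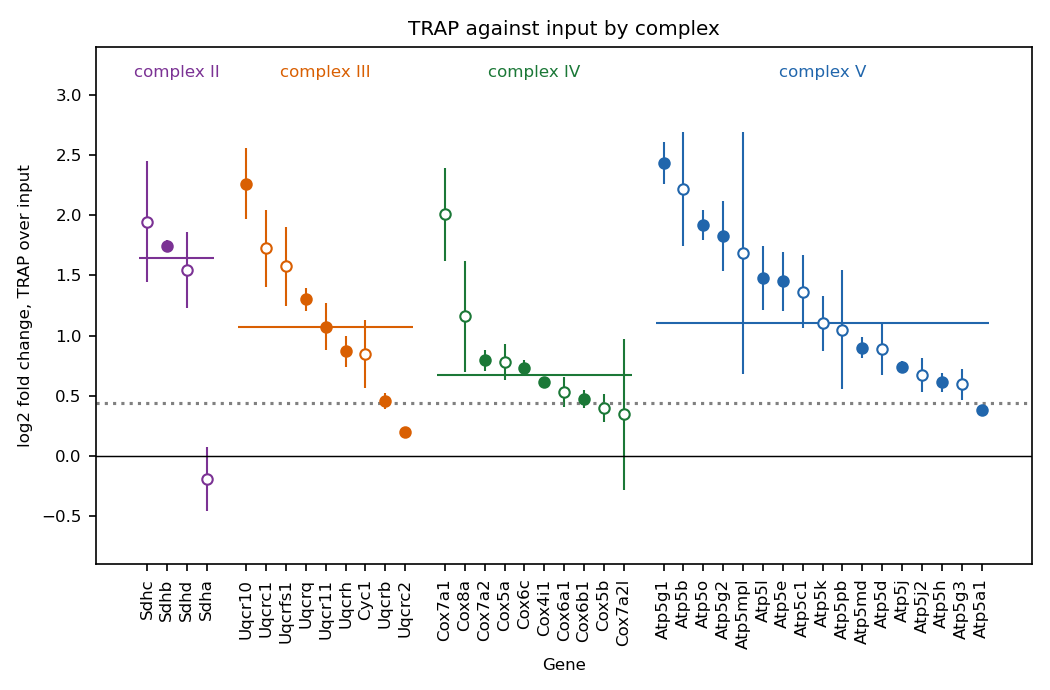
TRAP minus input on the log2 scale for the 40 genes above background, by complex, with error bars for the standard error from limma and filled points for an adjusted p under 0.05. Horizontal lines mark the median of each complex (1.64, 1.07, 0.67 and 1.10 for complexes II to V) and the dotted line the median of all genes above background (0.44), which 35 of the 40 genes exceed.

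Because input holds RNA of every cell of the tissue, a lower share of a cell type and less RNA per cell cannot be told apart in it. The scaling of the arrays also matters for these directions. With quantile normalization the median of all genes moved by -0.39 on the log2 scale and with centring on the probe sets at 50 units or more by -0.41, and under both the same 5 genes (Atp5a1, Cox5b, Cox7a2l, Sdha and Uqcrc2) had TRAP below input. Quantile normalization left 6 of the 40 subunit genes called higher and made 2 called lower. These 2, Atp5a1 (-0.08, adjusted p = 0.0379 from limma) and Uqcrc2 (-0.27, adjusted p = 0.0274), are among the 20 called higher as deposited. The split over all genes above background became 12.2% higher and 10.2% lower. Centring gave 20 higher and 0 lower, 12 of them among the 20 reported, and a split of 21.4% and 21.2%. Relative to the median of all genes above background the 40 subunit genes stood 0.54 higher as deposited and after centring, and 0.46 higher after quantile normalization.

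The promoters were searched for sites that the rule did not use. RefSeq windows of 300 bases, from 250 before to 50 after the start site in build GRCm38.p6, were at hand for 35 of the 47. They were searched on both strands for GCATGCGC (the core of the site of NRF1, nuclear respiratory factor 1), CCGGAAGT (an ETS site of the kind bound by GABP, also called nuclear respiratory factor 2) and AAGATGGC (the core of the YY1 site). These are 3 factors known from the promoters of respiratory genes. The NRF1 letters overlap their own reverse complement where both occur together. The NRF1 letters were found in 7 of 35 windows (20%), against 3.93% of the windows of 17491 protein-coding genes. The GABP letters were found in 4 (11.4%, against 5.69%), the YY1 letters in 3 (8.57%, against 3.57%), and at least 1 of the motifs in 13 (37.1%, against 12.3%). The 17491 genes were taken whatever their level, whereas 31 of the 35 subunit genes were above background. No share over genes above background was counted. Most windows of the subunit genes held none. Among the genes above background, 7 of the 14 with a window that were called higher and 6 of the 17 that were not held at least 1 motif.

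The following windows show, for each complex, the gene above background with the lowest adjusted p from limma among those with a motif, and Cox7a1. Motifs are in capitals, and each window is read 5′ to 3′ along the strand of the gene. Sdhb (chr4:140961021-140961320, plus strand) holds the NRF1 letters at bases -54 to -47 from the start site and is the only subunit gene called in every fit that left out an array. Uqcrh (chr4:116075021-116075320, minus strand) holds the GABP letters on the opposite strand at -11 to -4, next to the start. Cox6a1 (chr5:115348909-115349208, minus strand) holds the NRF1 letters on both strands, overlapping, at -162 to -153. Atp5j (chr16:84834927-84835226, minus strand) holds the YY1 letters at -88 to -81. Cox7a1 (chr7:30183921-30184220, plus strand), the heart and muscle isoform described with complex IV, holds none of the searched letters.
Sdhb: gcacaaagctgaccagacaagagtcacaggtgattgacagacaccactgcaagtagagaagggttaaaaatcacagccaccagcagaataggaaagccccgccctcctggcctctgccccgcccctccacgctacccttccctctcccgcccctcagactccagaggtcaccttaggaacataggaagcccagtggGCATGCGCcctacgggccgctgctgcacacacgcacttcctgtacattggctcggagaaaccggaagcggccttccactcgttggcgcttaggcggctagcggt
Uqcrh: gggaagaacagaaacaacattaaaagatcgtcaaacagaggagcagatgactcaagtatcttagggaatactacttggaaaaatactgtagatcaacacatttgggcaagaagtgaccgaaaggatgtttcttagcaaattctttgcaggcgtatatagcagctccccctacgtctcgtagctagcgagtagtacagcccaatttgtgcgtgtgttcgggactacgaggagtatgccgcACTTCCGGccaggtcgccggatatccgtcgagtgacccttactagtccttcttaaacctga
Cox6a1: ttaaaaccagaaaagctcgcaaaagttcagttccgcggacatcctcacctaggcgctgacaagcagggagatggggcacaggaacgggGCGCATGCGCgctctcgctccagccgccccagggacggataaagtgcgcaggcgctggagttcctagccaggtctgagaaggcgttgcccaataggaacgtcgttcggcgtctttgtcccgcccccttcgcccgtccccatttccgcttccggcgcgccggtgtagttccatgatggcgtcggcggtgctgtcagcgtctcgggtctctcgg
Atp5j: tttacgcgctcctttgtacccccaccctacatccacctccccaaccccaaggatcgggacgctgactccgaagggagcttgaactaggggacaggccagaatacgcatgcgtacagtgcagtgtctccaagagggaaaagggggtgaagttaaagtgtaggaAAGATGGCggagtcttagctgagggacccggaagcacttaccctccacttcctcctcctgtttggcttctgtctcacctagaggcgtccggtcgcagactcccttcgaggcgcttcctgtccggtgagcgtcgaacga
Cox7a1: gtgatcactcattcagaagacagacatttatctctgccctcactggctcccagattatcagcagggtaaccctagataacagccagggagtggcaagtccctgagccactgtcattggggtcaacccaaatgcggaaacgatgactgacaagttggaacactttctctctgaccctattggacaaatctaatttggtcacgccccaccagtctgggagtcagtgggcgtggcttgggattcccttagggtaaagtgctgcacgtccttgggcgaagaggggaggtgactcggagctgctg

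All 4 genes of complex II were above background, and 1 was called higher. Sdhb encodes the iron-sulphur subunit that carries electrons through the complex. Its level was 8808 and 9383 units on TRAP replicates 2 and 4 and 2657 and 2777 units on input replicates 1 and 2, a 3.35-fold difference. The arrays of each fraction were close together, and the log2 difference was 1.74 (standard error 0.05, adjusted p = 0.00167 from limma). Sdhb alone was called higher in all 4 fits that left out 1 array.

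Sdhc and Sdhd encode the membrane anchor, where ubiquinone is reduced. Sdhc was at 2529 and 3017 units in TRAP and at 1033 and 498 in input, and Sdhd was at 1204 and 1136 units in TRAP and at 505 and 318 in input. The fractions did not overlap for either gene, but the input arrays were far apart. The log2 differences of 1.95 for Sdhc (standard error 0.50, adjusted p = 0.0852 from limma) and 1.54 for Sdhd (standard error 0.31, adjusted p = 0.0601) were not called. Sdha encodes the flavoprotein that oxidises succinate, and it was the only gene of the 40 with a negative log2 difference. Its level was 5130 and 5146 units in TRAP, between the 7160 and 4815 units of input replicates 1 and 2, for a log2 difference of -0.19 (standard error 0.27, adjusted p = 0.580). A second probe set of Sdha above background gave 0.72 (adjusted p = 0.126), with both TRAP arrays above both input arrays. Without input replicate 1 the rule's probe set of Sdha gave 0.09, and without input replicate 2 it gave -0.48. The direction of this gene thus rests on 1 array and on the probe set. In these fits the spread is taken from the TRAP arrays alone, which lay close together for Sdha, so no call is read from them.

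All 9 genes of complex III were above background with TRAP above input on every array as deposited (Uqcrc2 turned under the rescalings), and 6 were called higher, with a median log2 difference of 1.07. The 5 small subunits, which surround the catalytic core, were all called, beside 18.7% of all genes above background. Uqcr10 was at 2549 and 1647 units in TRAP and at 425 and 428 in input, a log2 difference of 2.26 (standard error 0.29, adjusted p = 0.0275 from limma). Uqcrq, which lies close to cytochrome b, was at 7721 and 7061 units in TRAP and at 2828 and 3170 in input, with a log2 difference of 1.30 (standard error 0.10, adjusted p = 0.00998). Both of these differed by more than 2-fold in every pairing of a TRAP and an input array.

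The other small subunits had smaller differences. Uqcr11 was at 11330 and 8981 units in TRAP and at 4393 and 5226 in input (log2 difference 1.07, adjusted p = 0.0496 from limma, the highest among the called subunit genes). Uqcrh, the hinge protein of the complex, was at 5717 and 6943 units in TRAP and at 3424 and 3479 in input (0.87, adjusted p = 0.0361). Uqcrb, which takes part in ubiquinone binding, was at 28636 and 25982 units in TRAP and at 19787 and 20071 in input (0.45, adjusted p = 0.0340). The log2 difference of Uqcrb was close to the median of all genes above background (0.44).

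Of the 4 catalytic and core subunits, 1 was called, but their median log2 difference of 1.21 was not below the 1.07 of the 5 small subunits. The difference between these sets was not tested. Uqcrc2, a core protein on the matrix side, was at 19540 and 18940 units in TRAP and at 16809 and 16755 in input. This is a log2 difference of only 0.20 (standard error 0.02, adjusted p = 0.0194 from limma), the smallest among the called subunit genes. The difference was negative under both rescalings, and Uqcrc2 was called lower with quantile normalization. Its partner Uqcrc1 had a much larger difference with more spread, 3067 and 4131 units in TRAP against 893 and 1295 in input (1.73, standard error 0.32, adjusted p = 0.0514). Uqcrfs1, the Rieske iron-sulphur protein, was at 5859 and 7739 units in TRAP and at 2757 and 1851 in input (1.58, adjusted p = 0.0621). Cyc1, which encodes cytochrome c1, was at 7280 and 6626 units in TRAP and at 4759 and 3140 in input (0.85, adjusted p = 0.119). TRAP lay above input on every array for these 3 genes, and none passed the threshold.

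**Figure D2:**
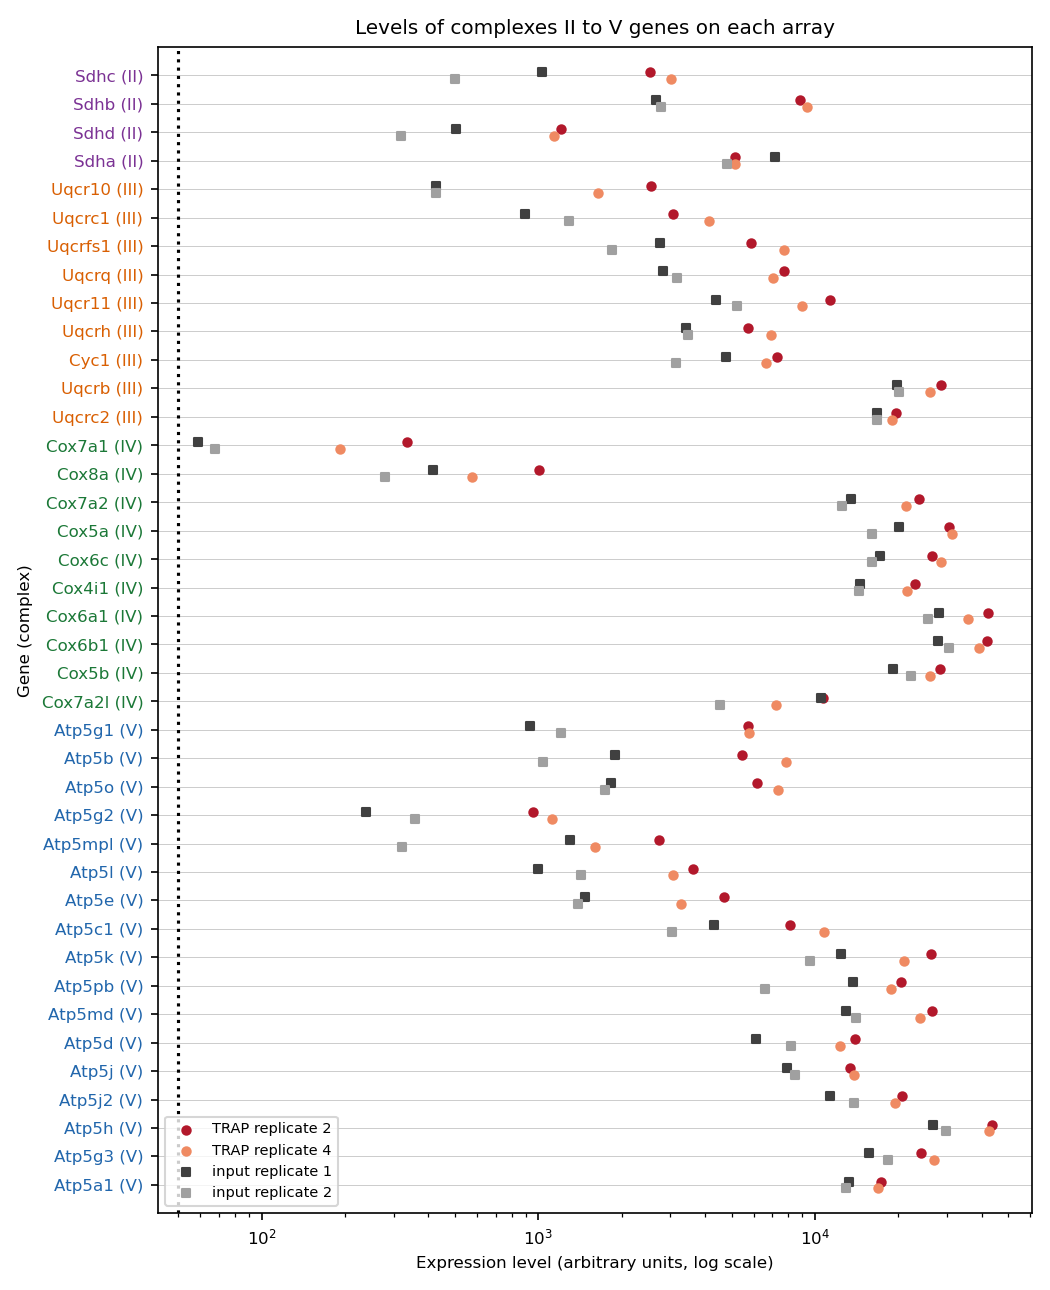
Level in arbitrary expression units on a log axis for the 40 genes above background, with circles for the TRAP arrays (dark red replicate 2, orange replicate 4) and squares for the input arrays (dark replicate 1, light replicate 2), the dotted line at 50 units and label colours for the complex. In these deposited values both TRAP circles lie to the right of both squares for 38 genes, and the circles and squares mix for Sdha and Cox7a2l.

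Several subunits of complex IV exist as isoforms encoded by different genes. Of its 17 genes 10 were above background and 4 were called higher, with a median log2 difference of 0.67. The called genes are Cox4i1, which carries the site at which ATP regulates the enzyme, and the small subunits Cox6b1, Cox6c and Cox7a2. Cox4i1 was at 22914 and 21517 units in TRAP and at 14595 and 14390 in input, a log2 difference of 0.62 (standard error 0.04, adjusted p = 0.00891 from limma). Cox7a2 was at 23708 and 21249 units in TRAP and at 13438 and 12478 in input (0.79, adjusted p = 0.0212). Cox6c was at 26497 and 28473 units in TRAP and at 17177 and 16050 in input (0.73, adjusted p = 0.0146). Cox6b1, which faces the intermembrane space where cytochrome c docks, was at 41704 and 39174 units in TRAP and at 27728 and 30569 in input (0.47, adjusted p = 0.0419). These 4 differences were all below 2-fold and had small spreads within each fraction.

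Other widely expressed subunits of complex IV were higher on both TRAP arrays without passing the test on the rule's probe set. Cox5a was at 30423 and 31196 units in TRAP and at 20044 and 16028 in input (0.78, adjusted p = 0.0553 from limma). Its other probe sets were called higher (1.52 and 1.28). Cox6a1 was at 42064 and 35626 units in TRAP and at 28059 and 25581 in input (0.53, adjusted p = 0.0796). Its second probe set was called higher (1.67). Cox5b was at 28183 and 25993 units in TRAP and at 19065 and 22175 in input (0.40, adjusted p = 0.0926). The direction of Cox5b turned under both rescalings. As deposited, further probe sets of Cox5b had both TRAP arrays above both input arrays without a call (0.63, 0.30 and 1.24). Another was called lower, at 9.755 units on both TRAP arrays and 57.55 on both input arrays. Its values were identical within each fraction, so that call rests on no measured spread. Cox8a, a small membrane subunit, differed most between its TRAP arrays, at 1008 and 574 units against 416 and 279 in input (1.16, standard error 0.46, adjusted p = 0.154). Cox7a2l encodes a factor that joins complexes III and IV into supercomplexes rather than a structural subunit in all copies of the enzyme. It was at 10677 and 7201 units in TRAP and at 10552 and 4519 in input, so that input replicate 1 alone reached the TRAP values (0.34, standard error 0.63, adjusted p = 0.670).

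The tissue-restricted isoforms of complex IV are known from lung (Cox4i2), heart and skeletal muscle (Cox6a2, Cox7a1 and Cox8b) and testis (Cox6b2, Cox7b2 and Cox8c). Of these 7 genes 6 were not above background. Cox4i2, Cox6b2, Cox7b2, Cox8b and Cox8c lay between 4.59 and 9.35 units on all 4 arrays, and Cox6a2 was at 18.2 units on both TRAP arrays and at 13.1 and 44.7 in input. The exception was Cox7a1, at 335 and 192 units in TRAP and at 58.6 and 67.6 in input. Both TRAP arrays were above both input arrays, and the log2 difference of 2.01 (standard error 0.39) just missed the threshold (adjusted p = 0.0549 from limma). It was the largest difference within complex IV, whereas the widely expressed counterpart Cox7a2 differed by 0.79. The difference between these isoforms was not tested.

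Cox7c, a widely expressed subunit, was the remaining gene not above background. It read 4.59 units on both TRAP arrays and 113 and 17.3 units in input. Its other probe set was below 50 units in both fractions, at 4.715 units on both TRAP arrays and at 7.27 and 4.59 in input.

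Complex V had 17 genes, all above background, and for all 17 TRAP lay above input on every array as deposited, with Atp5a1 turning under the rescalings. The median log2 difference was 1.10, and 9 were called higher. In the F1 head, where ATP is made, and its central stalk, 2 of 5 genes were called. Atp5a1, the alpha subunit, was at 17364 and 16860 units in TRAP and at 13304 and 12917 in input, a log2 difference of 0.38 (standard error 0.03, adjusted p = 0.00952 from limma). The difference was below 0 under both rescalings, and Atp5a1 was called lower with quantile normalization. Atp5e, the epsilon subunit, was at 4688 and 3266 units in TRAP and at 1474 and 1387 in input (1.45, adjusted p = 0.0441). Atp5b encodes the catalytic beta subunit. It had the largest difference of the head, 5426 and 7830 units in TRAP against 1895 and 1035 in input, but also wide spread (2.22, standard error 0.47, adjusted p = 0.0656). Atp5c1, the gamma subunit that turns within the head, gave 1.36 (adjusted p = 0.0704), and Atp5d, the delta subunit, 0.89 (adjusted p = 0.0805).

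The c subunits form the ring that rotates in the membrane, and they are encoded by 3 genes whose mature proteins are identical and which differ in their import sequences. Atp5g1 was at 5723 and 5756 units in TRAP and at 933 and 1207 in input. Its log2 difference of 2.44 (standard error 0.17, adjusted p = 0.00907 from limma) was the largest of all 40 genes. Atp5g2 was at 959 and 1124 units in TRAP and at 239 and 358 in input (1.83, adjusted p = 0.0398). Atp5g3 was at 24217 and 27002 units in TRAP and at 15705 and 18292 in input (0.59, adjusted p = 0.0646). TRAP was higher for all 3 genes on the probe sets of the rule, but second probe sets of Atp5g1 and Atp5g2 ran the other way.

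The peripheral stalk holds the head still against the turning ring, and 3 of its 4 genes were called. Atp5o, the OSCP subunit at the top of the stalk, was at 6171 and 7361 units in TRAP and at 1830 and 1737 in input (1.92, standard error 0.12, adjusted p = 0.00753 from limma). Atp5j, the stalk's coupling factor 6 subunit, was at 13368 and 13876 units in TRAP and at 7913 and 8441 in input (0.74, standard error 0.05, adjusted p = 0.00836). Atp5h, the d subunit, was at 43724 and 42534 units in TRAP and at 26679 and 29858 in input (0.61, adjusted p = 0.0267). The fourth, Atp5pb, encodes the b subunit that spans the length of the stalk. It was at 20529 and 18899 units in TRAP and at 13747 and 6584 in input, and the gap between its input arrays left it uncalled (1.05, adjusted p = 0.197).

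Small membrane subunits help to pair ATP synthases into dimers along the cristae, and 2 of these 5 genes were called. Atp5l, subunit g, was at 3612 and 3066 units in TRAP and at 999 and 1427 in input (1.48, adjusted p = 0.0481 from limma). Atp5md was at 26488 and 24006 units in TRAP and at 12986 and 14086 in input (0.90, adjusted p = 0.0157). Not called were Atp5k, subunit e, with a log2 difference of 1.10, and Atp5j2, subunit f, with 0.67. The fifth, Atp5mpl, had the widest spread of the 40 genes. It was at 2725 and 1598 units in TRAP and at 1304 and 322 in input, so that input replicate 1 came close to TRAP replicate 4 (1.69, standard error 1.0, adjusted p = 0.268).

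The spread between arrays of the same fraction varied with the level. The median absolute log2 difference between the TRAP arrays was 0.16 over the 40 genes and 0.28 over all genes above background, and between the input arrays it was 0.24 and 0.42. At matched levels the subunit genes were closer only in the brightest range, from 10000 to 60000 units (TRAP 0.10 against 0.14, input 0.13 against 0.23). From 2000 to 10000 units they were slightly farther apart than all genes (TRAP 0.27 against 0.24, input 0.40 against 0.37), and from 50 to 2000 units more so (TRAP 0.43 against 0.30, input 0.58 against 0.44). The largest differences between TRAP replicates 2 and 4 were for Cox8a (0.81), Cox7a1 (0.81), Atp5mpl (0.77) and Uqcr10 (0.63), all higher on replicate 2, the TRAP array with the higher oligodendrocyte sum. Of the 40 genes 25 were higher on replicate 2, by a median over all 40 of 0.09. Between the input arrays Atp5mpl (2.02), Cox7a2l (1.22), Atp5pb (1.06) and Sdhc (1.05) differed most, and all 4 were higher on replicate 1.

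Many called subunit genes had small differences with little spread, and several uncalled ones had large differences with more. The 17 genes with a mean from 10000 to 60000 units had a median log2 difference of 0.62 and 10 were called (58.8%), compared with 29.6% of all genes in that range. The 14 genes between 2000 and 10000 units had a median of 1.33 with 7 called (50%, all genes 18.1%), and the 9 genes between 50 and 2000 units had a median of 1.73 with 3 called (33.3%, all genes 17.3%). Among all genes above background the same ranges gave medians of 0.53, 0.53 and 0.41. Over the 40 subunit genes Spearman's rho between the mean log2 level and the log2 difference was -0.79. It was -0.45 over all 72 probe sets of the subunit genes above background, so the relation was weaker without the choice of the brightest, and 0.10 over all 10014 genes above background. These are descriptions across genes and probe sets, which share the arrays and are not independent replicates, and the levels of different probe sets depend on their probes as well as on the message. The highest values of any probe set were 54823 and 54801 units in TRAP and 44032 and 43838 in input. The part of an upper limit of the arrays in the smaller differences of the brightest genes was not tested.

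**Figure D3:**
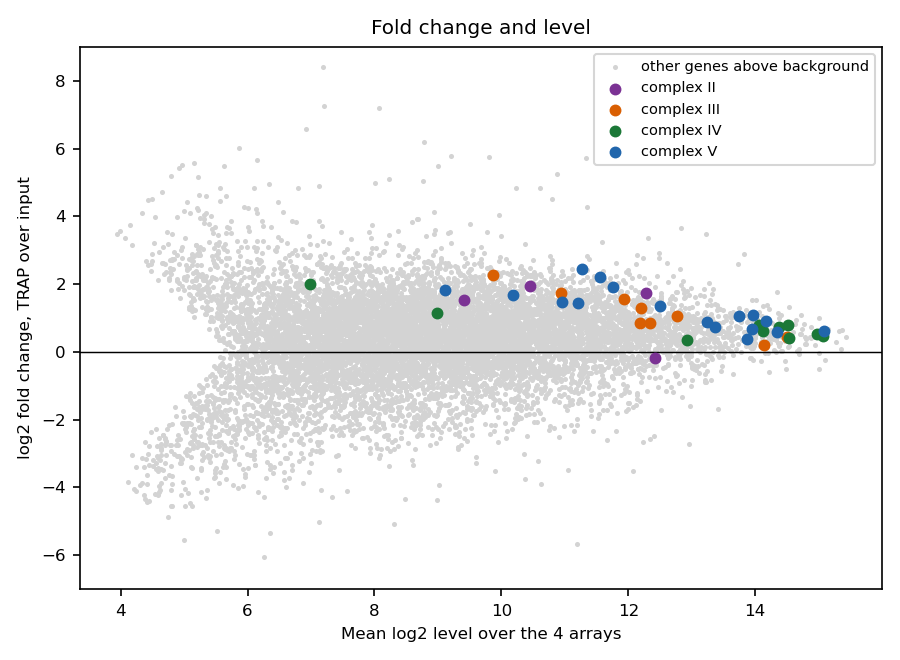
Log2 difference between TRAP and input against the mean log2 level over the 4 arrays, with the 40 subunit genes coloured by complex over all other genes above background in grey. The coloured points lie lower at higher levels, from a median of 1.73 below 2000 units to 0.62 from 10000 units up, whereas the grey cloud has no such slope.

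Other probe sets of the same genes bear on these sizes. For 24 of the genes at least 1 further probe set was above background, 32 in all. Of these 14 were called higher (43.8%), 2 lower (6.25%) and 16 neither, compared with 20.2% higher and 10.4% lower among 5510 further probe sets over all genes. The difference was larger than on the rule's probe set for 21 of the 32 (65.6%), compared with 60.4% of those over all genes. In these 24 genes the median was 0.79 on the rule's probe sets and 1.36 on the others, taking the median of the others within each gene. Large gaps were seen for Uqcrb (0.45 and 1.68), Cox6a1 (0.53 and 1.67) and Atp5pb (1.05 and 2.43). The second probe set of Cox8a was below background in input and at least 2.87-fold higher in TRAP. Counting a gene as called when any of its probe sets above background was called higher gave 27 of 40 genes (67.5%), 7 more than the rule, and the same count gave 25.2% over all genes. The 7 were Sdhc, Cox5a, Cox6a1, Cox8a, Atp5d, Atp5j2 and Atp5k. Probe sets called lower in TRAP were seen for Atp5g2, at 4.58 units on both TRAP arrays and 81.9 and 103 in input, and for Cox5b, at 9.76 units on both TRAP arrays and 57.6 on both input arrays. TRAP was below background on both, and against 50 units the values are at least 1.84-fold lower for Atp5g2 and at least 1.15-fold lower for Cox5b. Further probe sets of Atp5g1 (-0.97) and Atp5a1 (-0.19) were lower in TRAP without a call, and for these 4 genes the direction depends on the probe set. Whether each of these probe sets detects the annotated gene alone was not tested.

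**Figure D4:**
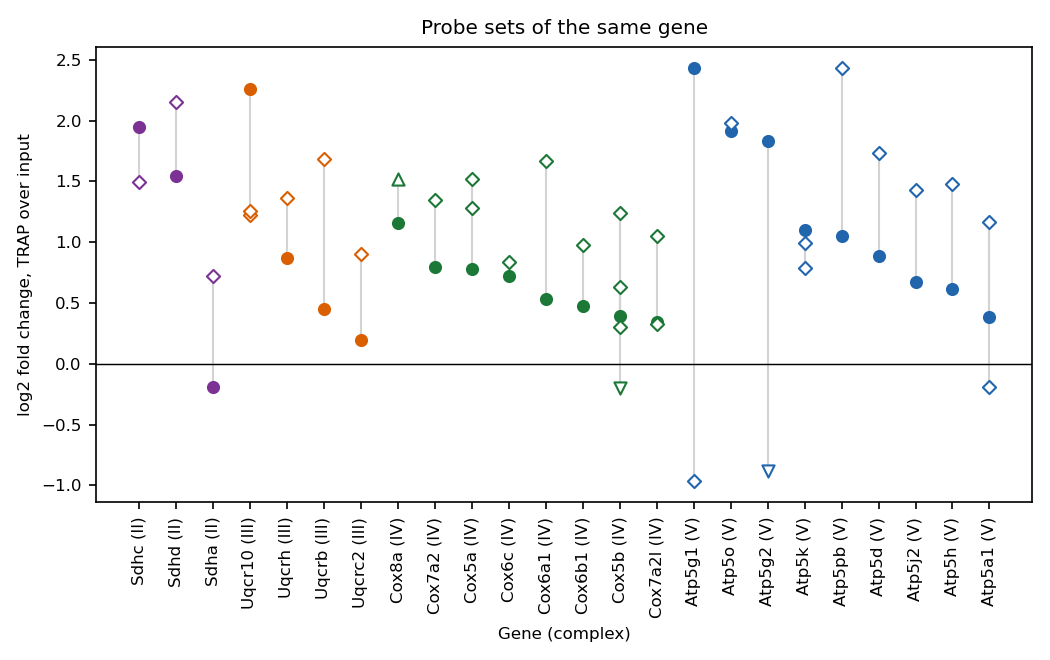
Log2 difference between TRAP and input for the 24 genes with at least 2 probe sets above background, with filled circles for the probe set of the rule open diamonds for the others, and open triangles at the bound for the 3 that were below 50 units on both arrays of a fraction. Most open symbols lie above their circle (21 of 32), and the bounds of Atp5g2 (-0.88) and Cox5b (-0.20) lie below 0.

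Genes that work with these complexes were read from the same fit. Of the complex I nuclear subunits listed, 33 were above background, and of these 14 were called higher and 0 lower. Over all genes above background 18.7% were called higher and 6.87% lower. The median log2 difference of 0.99 in complex I was close to the 0.97 of complexes II to V. The largest called difference in complex I was that of Ndufab1, the acyl carrier protein, at 13914 and 15134 units in TRAP and 3591 and 3786 in input (1.98, adjusted p = 0.00213 from limma). Cytochrome c, the carrier between complexes III and IV, was called higher through Cycs, at 21681 and 23921 units in TRAP and 13353 and 14874 in input (0.69, adjusted p = 0.0322). Its testis form Cyct was not above background.

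Assembly factors, which build the complexes and are not part of them, had 30 listed genes above background, with a median log2 difference of 1.55. Of these, 11 were called higher, 1 lower and 18 neither, beside 18.7% higher and 6.87% lower over all genes above background. The log2 difference was negative for 4 of the 30. For complex II, Sdhaf2 (1.83) and Sdhaf4 (1.64), which help to mature the flavoprotein Sdha, were called higher. For complex III, Bcs1l, which inserts the Rieske protein, was at 867 and 836 units in TRAP and at 222 and 245 in input (1.87, adjusted p = 0.00268 from limma), and Ttc19 (1.79) and Uqcc3 (1.61) were also called higher. For complex IV, Sco2, a copper chaperone, was at 355 and 399 units in TRAP and at 55.5 and 50.6 in input (2.83, adjusted p = 0.00231). Coa3, Coa7, Cox18 and Cox19 were called higher by 1.59 to 2.41, and Cox16, which was below 50 units in input, was at least 3.22-fold higher. Cox15, which takes part in making haem a, was called lower, at 749 and 703 units in TRAP and 908 and 977 in input (-0.38, adjusted p = 0.0450). Cox11 (-0.17) and Coa5 (-0.20) were not called. For complex V, none of Atpaf1, Atpaf2 and Tmem70 was called. The fractions of Atpaf1 overlapped (-0.07, adjusted p = 0.629 from limma), and Tmem70 gave 2.54 (adjusted p = 0.0852). Atpaf2 was below 50 units in input and at least 1.58-fold higher in TRAP (adjusted p = 0.0852).

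Regulators of mitochondrial genes had no common direction. Of 12 listed genes above background 1 was called higher and 2 lower, with a median log2 difference of -0.08. Over all genes above background 18.7% were called higher and 6.87% lower, and the counts for the regulators are too small to be set apart from those shares. Tfb1m, which methylates mitochondrial ribosomal RNA, was higher (1.67, adjusted p = 0.0137 from limma). Ppargc1b, a coactivator of respiratory genes, was at 246 and 192 units in TRAP and at 570 and 734 in input (-1.57, adjusted p = 0.0359). Gabpa, the DNA-binding subunit of GABP, was at 172 and 184 units in TRAP and at 321 and 294 in input (-0.79, adjusted p = 0.0160). Nrf1 was not above background. Of the mitochondrially encoded transcripts only ND5 of complex I had a single-symbol probe set among the 13 listed. It was at 246 and 431 units in TRAP and at 12892 and 21709 in input, a log2 difference of -5.68 (standard error 0.51, adjusted p = 0.0143). The sign is opposite to the median of the nuclear subunits. The tag is on cytosolic ribosomes, which do not translate this transcript, so the value does not measure its level in the tagged cells.

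The number of called genes rests on 2 arrays a fraction. With 1 array left out, a fraction holds a single array, and fewer subunit genes and a smaller share of all genes were called higher. The median log2 difference of the 40 subunit genes was then 0.87 to 1.05. Without either TRAP array the called subunit genes were all among the 20, whereas without either input array some were not. Without input replicate 2 the log2 difference of Sdha was -0.48, in a fit that cannot measure the spread of input. The fit covers all probe sets, among them 15551 whose values are identical within each fraction. A fit of the probe sets above background alone called 19 subunit genes higher, 11 of them among the 20, beside 22.7% of all genes above background.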

How the data were processed

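The authors hybridised Affymetrix mouse expression arrays with RNA amplified from up to 10 ng of RNA of RIN above 7 by a two-cycle protocol. The authors processed the arrays with GCRMA (version not given in the sources used here), and the deposited values are log2 expression, 1 value per probe set and array. They were tested as deposited, without further normalization. Array data have no read depth, and the number of arrays limits the precision.

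The tables hold 45101 probe sets, and all but the 64 Affymetrix controls were fitted. The difference between the fractions was estimated in R 4.3.3 by limma 3.58.1 (lmFit and eBayes, 2-sided, no covariates). P-values were adjusted by Benjamini-Hochberg over the 45037 fitted probe sets, and 0.05 was the threshold. Beside 2 residual degrees of freedom the variance prior contributed 0.317. Labels do not say whether the array pools were separate beyond their replicate numbers, and TRAP replicate 2 and input replicate 2 may share mice, so p-values measure the spread between these samples.

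Genes were named from the platform annotation, and all 47 subunit genes matched RefSeq by gene identifier with 0 symbols changed. Transcripts of near-identical copies cannot be separated by probes that match both. Named in the text were the called genes, the extremes of each complex, isoforms, the Sdh genes and those with the largest TRAP spread, and other members were added to complete each complex. The members, lists, tests and motifs were chosen with earlier results of these data known. The background of 50 units was chosen for this comparison. Alternatives were another scaling (quantile normalization, or centring on probe sets at 50 units or more), a fit of probe sets above background, values raised to 50 units, an intensity trend in the prior, each array left out, the mean of a gene's probe sets, no probe sets with _s_at or _x_at suffixes, a threshold of 0.01 and a background of 100 units.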

Additional observations from a re-analysis of the deposited data

How the results depend on the processing

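No paired analysis was possible because the fractions share only replicate number 2. The count of 20 of 40 subunit genes higher and 0 lower in TRAP (all genes above background 18.7% and 6.87%) became 6 and 2 with quantile normalization (all genes 12.2% and 10.2%). It was 2 and 0 with values under 50 units raised to 50 (all genes 4.44% and 1.98%). At a threshold of 0.01 it was 7 and 0 (all genes 5.25% and 2.14%). Calls with an array left out are not counted here, because the lone array is assumed to vary like the other fraction. The count higher was 20 after centring (all genes 21.4%) and 19 in the fit above background (22.7%). It was 30 with the intensity trend (19 of the 20 and 11 others, all genes 25.6%) and 20 at a background of 100 units (18.75%). With the mean of a gene's probe sets it was 16 of 38 (all genes 21.9%). Without suffixed probe sets it was 21 of 38, where no share over all genes was counted. Raising values gave most probe sets no variance, which makes that fit unreliable, and it left the differences of these genes as they were.

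The median log2 difference of all 40 genes, 0.97, was 0.50 with quantile normalization and 0.57 after centring (0.87 to 1.05 with an array left out). Without suffixed probe sets it was 1.21 over the 38 genes then above background. For complex II, 1.64 became 1.18 and 1.23 under these scalings (1.31 to 1.80 with an array left out). For complex III, 1.07 became 0.54 and 0.66, and 1.22 without suffixed probe sets, over 8 genes (1.01 to 1.24 with an array left out). For complex IV, 0.67 became 0.22 and 0.26, 0.93 with the mean of probe sets and 0.75 without suffixed ones (0.61 to 0.81 with an array left out). For complex V, 1.10 became 0.64 and 0.69 (0.96 to 1.29 with an array left out). It was 1.0 with the mean and 1.44 without suffixed ones, each over 16 genes.

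Directions turned with quantile normalization and with centring for Atp5a1 (-0.08 and -0.03), Cox7a2l (-0.19 and -0.06) and Uqcrc2 (-0.27 and -0.21). Cox7a2l also turned without input replicate 2 (-0.27). Atp5g2 turned with the mean of its probe sets (-0.83), of which all but 1 are under 50 units in TRAP. Uqcrq gave -0.03 without suffixed ones, on a probe set below background at 4.72 units in TRAP and 4.81 in input, so no direction is read from it. Sdha turned without input replicate 1 (0.09), with the mean (0.12) and without suffixed probe sets (0.72), and was -0.48 without input replicate 2. The cause was not tested. Atp5b, uncalled at 2.22 as reported, was called after centring, in the fit above background and with the intensity trend.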
